A study of Mus musculus with 20 samples.

Results

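Long noncoding RNAs (lncRNAs) that were well expressed in bone marrow-derived macrophages (BMDMs) exposed to fractions of inflamed airway fluid are described here. The members were selected on their measured level: every gene typed as lncRNA in the deposited table with a mean over the 20 libraries of at least 15 CPM (counts scaled to each library's total) was taken, which gave 172 of the 78409 genes listed. The table lists 32897 lncRNA genes, of which 10754 had a count in at least 1 library, and 6506 genes of any type reached 15 CPM. A gene that was high in a single group could thus enter through that group, and 118 of the 172 averaged at least 15 CPM in all 5 groups. Counts of members are given below for the 172 and for these 118, as descriptions.

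BMDMs were grown from the marrow of female wild-type C57BL/6J mice and treated on day 7 of culture, at 200000 cells per well. The 5 treatments, with 4 libraries each, were PBS, RNY1+/+ EVFx, RNY1-/- EVFx, RNY1+/+ ProteinFx and RNY1-/- ProteinFx. EVFx is the vesicle-enriched and ProteinFx the protein-enriched part of bronchoalveolar lavage fluid after size exclusion chromatography. EVFx was given at 35000000 particles per µL and ProteinFx at 0.75 µg of protein per µL, both after 5 days of storage. The fluid came from mice aged 7 to 16 weeks with ovalbumin-driven airway inflammation, and the genotype is that of these donors: RNY1-/- mice carry a CRISPR deletion of the gene for the small noncoding RNA RNY1, whereas the macrophages of all 5 groups were wild type. Whether libraries of 1 group stem from separate fluids, cultures or wells is not given in the sources used here, so p-values measure only the spread between these libraries.

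lncRNAs are transcripts longer than the small RNA classes that carry no long reading frame. Some stay in the nucleus and shape it, such as Malat1 and Neat1, some coat a chromosome, as Xist does, and some are mainly the carriers of snoRNAs or microRNAs that are cut out of them. Others are transcribed from the opposite strand or the shared start of a protein-coding gene. In macrophages, inflammatory stimuli and interferons change the level of many of them, and several modulate the output of cytokine or survival genes.

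Total counts ran from 2510005 to 8277366 per library (median 5456425), and 3 counts, taken as the floor of detection, corresponded to 0.362 to 1.2 CPM. Macrophage markers (7 of 7 above 3 counts) summed to between 8450 and 12800 CPM in every library. Neutrophil markers (4 of 7 above 3 counts) summed to 277 to 331 CPM with PBS, 142 to 206 with RNY1+/+ EVFx, 183 to 263 with RNY1-/- EVFx, 198 to 322 with RNY1+/+ ProteinFx and 239 to 353 with RNY1-/- ProteinFx. Eosinophil markers (2 of 4 above 3 counts, Epx at 0) summed to 7.17 to 13.5 CPM with PBS. Their sums were 0.801 to 1.42 and 1.31 to 2.46 CPM with RNY1+/+ and RNY1-/- EVFx. With RNY1+/+ and RNY1-/- ProteinFx they were 14.7 to 21.1 and 12.3 to 17.1 CPM. T cell markers summed to at most 9.22 CPM, B cell markers to at most 3.78 and epithelial markers to at most 20.7 (Sftpc at 0). Fibroblast markers summed to at most 42.2 CPM, and mast cell (Mcpt4 and Tpsb2 at 0) and dendritic cell markers to at most 0.797. PBS replicate 3 stood apart from the other PBS libraries, with a squared difference per gene of 17.9 to 38.1 times that expected from counting, against 2.42 to 11.4 among the others. RNY1-/- ProteinFx split into replicates 1 and 2 (3.69) and replicates 3 and 4 (2.47), with 13.5 to 16.3 across. Rny1 has 2 entries, 1 of them typed as lncRNA, and together they held 9 counts over the RNY1+/+ EVFx libraries, 1 in each other fraction group and 0 with PBS, so the lncRNA entry averaged 0.0455 CPM and was no member.

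The members' levels spanned more than 2 orders of magnitude. Their median was 32.0 CPM. Of the 172, 89 reached 30 CPM and 33 reached 100. Reads came from the 3′ ends of transcripts and were not divided by length, so this order is one of 3′-end counts. Just inside the limit were ENSMUSG00000128633 at 15.18 CPM, Gm56582 at 15.2 and 4930434J08Rik at 15.32, and just outside were 4930455G09Rik at 14.94, 2900076A07Rik at 14.76 and ENSMUSG00000138136 at 14.49. Together the members took 1.58% to 2.41% of a library's counts. The share was 1.84% ± 0.288 (SD, n = 4) with PBS, 1.72% ± 0.0954 with RNY1+/+ EVFx, 1.95% ± 0.0538 with RNY1-/- EVFx, 2.13% ± 0.221 with RNY1+/+ ProteinFx and 2.12% ± 0.163 with RNY1-/- ProteinFx. Without AW112010 the shares were 1.83%, 1.59%, 1.77%, 1.73% and 1.86% in the same order.

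The highest member was Malat1, a nuclear speckle RNA, at 3360 CPM, and its libraries ranged from 2640 to 5580 CPM with PBS, 2440 to 3710 with RNY1+/+ EVFx, 2960 to 3950 with RNY1-/- EVFx, 1980 to 4640 with RNY1+/+ ProteinFx and 2740 to 4870 with RNY1-/- ProteinFx. All 5 groups overlapped, and no comparison passed the test. Neat1, the scaffold of paraspeckles, averaged 888 CPM, and its group means lay between 738 ± 86.5 and 1040 ± 136 CPM. Xist, which silences an X chromosome in female cells, averaged 600 CPM and was lower with every fraction than with PBS. Its 4 PBS libraries held 765 to 969 CPM, above all 16 libraries with a fraction (383 to 752 CPM), and the log2 fold changes, each with its SE (SE), were -0.39 (SE 0.10), -0.75 (0.12), -0.79 (0.11) and -0.56 (0.17) with RNY1+/+ EVFx, RNY1-/- EVFx, RNY1+/+ ProteinFx and RNY1-/- ProteinFx, with adjusted p from 0.00011 to 0.031 (edgeR's quasi-likelihood test, Benjamini-Hochberg over all genes tested, here and throughout).

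Among the other members of highest level, Gm44442 (1390 CPM) held 1820 to 2100 CPM with PBS and 995 to 1150 with RNY1+/+ EVFx, a log2 fold change of -0.64 (SE 0.10, adjusted p = 0.00032). Gm15832 (656 CPM), ENSMUSG00000132147 (770 CPM), ENSMUSG00000141779 (533 CPM), Gm56862 (474 CPM) and ENSMUSG00000124283 (371 CPM) completed the first 10 with AW112010 (1970 CPM). ENSMUSG00000141779 was lower with each fraction, by log2 fold changes of -0.40 to -0.75, and its PBS libraries (718 to 868 CPM) lay above all others (384 to 589 CPM). Gm56862 differed between the fractions. It averaged 608 ± 156 CPM with PBS, fell to 224 ± 20.6 with RNY1+/+ EVFx (log2 fold change -1.27, SE 0.16, adjusted p = 8.8e-05) and stood at 385 ± 27.3 with RNY1-/- EVFx, 487 ± 38.2 with RNY1+/+ ProteinFx and 664 ± 185 with RNY1-/- ProteinFx. The direct difference of RNY1+/+ ProteinFx from RNY1+/+ EVFx was 1.12 (SE 0.09, adjusted p = 9.2e-08) and that of RNY1-/- from RNY1+/+ EVFx 0.86 (SE 0.08, adjusted p = 0.0002).

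Several members carry microRNAs, and their mature sequences are shown since the host transcripts moved in different directions. The small RNAs themselves were not measured by these libraries. Sequences and positions are from RefSeq on GRCm38.p6, the seed (bases 2 to 8) is in capitals, and none of the 5p or 3p arms shown shares a seed with another. Mir223hg lies over miR-223 at chrX:96242842-96242905, Mir22hg over miR-22 at chr11:75463734-75463793, Mir142hg over miR-142a at chr11:87756867-87756925 and Mir99ahg over miR-99a at chr16:77598940-77598997 and 2 further microRNAs, all on the plus strand.
miR-223-5p: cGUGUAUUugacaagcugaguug
miR-223-3p: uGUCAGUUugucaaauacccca
miR-22-5p: aGUUCUUCaguggcaagcuuua
miR-22-3p: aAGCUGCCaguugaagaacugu
miR-142a-5p: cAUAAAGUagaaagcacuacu
miR-142a-3p: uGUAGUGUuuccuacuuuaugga
miR-99a-5p: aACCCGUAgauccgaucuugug
let-7c-5p: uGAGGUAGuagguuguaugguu
miR-125b-5p: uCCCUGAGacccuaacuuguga

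Promoters of 3 members described below, chosen after their values and motifs were seen, are shown next, 250 bases before to 50 after the start that RefSeq gives on GRCm38.p6. Capitals mark motifs found by a search of both strands for the interferon-stimulated response element core (GAAA, any 2 bases, GAAA), the gamma-activated site core TTCNNNGAA and the kappaB motif. Gm12250 (chr11:58183593-58183892, plus strand) held 2 response element cores and 1 gamma-activated core. AW112010 (chr19:11050517-11050816, minus strand) held 1 kappaB motif, and Mir223hg (chrX:96239676-96239975, plus strand, RefSeq symbol F630028O10Rik) held 1 response element core.
Gm12250: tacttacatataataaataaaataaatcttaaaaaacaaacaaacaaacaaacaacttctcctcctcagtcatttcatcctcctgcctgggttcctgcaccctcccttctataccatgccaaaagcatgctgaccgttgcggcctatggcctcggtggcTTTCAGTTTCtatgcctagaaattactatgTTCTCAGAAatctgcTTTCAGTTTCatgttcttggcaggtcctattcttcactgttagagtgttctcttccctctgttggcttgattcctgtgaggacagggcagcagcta
AW112010: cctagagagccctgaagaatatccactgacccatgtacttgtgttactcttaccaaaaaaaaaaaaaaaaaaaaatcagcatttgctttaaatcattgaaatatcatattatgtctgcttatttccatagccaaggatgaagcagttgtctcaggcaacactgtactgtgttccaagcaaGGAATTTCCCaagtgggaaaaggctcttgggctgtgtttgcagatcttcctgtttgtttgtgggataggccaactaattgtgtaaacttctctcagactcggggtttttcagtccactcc
Mir223hg: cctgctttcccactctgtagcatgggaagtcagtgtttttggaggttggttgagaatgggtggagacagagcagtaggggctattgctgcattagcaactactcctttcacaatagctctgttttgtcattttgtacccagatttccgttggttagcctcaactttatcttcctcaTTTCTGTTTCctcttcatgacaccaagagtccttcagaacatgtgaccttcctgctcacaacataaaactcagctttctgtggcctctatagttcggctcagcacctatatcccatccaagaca

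RefSeq windows were found for 47 members, 59 windows in all. Of these 47, 4 held a response element core (Gm12250, Rab10os, Gm36161 and Mir223hg), 4 a gamma-activated core, 5 a kappaB motif, 3 the AP-1 motif TGANTCA and 3 the E-box CACGTG. Over all 32851 RefSeq promoters of the same length the shares were 3.44%, 8.3%, 8.46%, 7.81% and 7.15%. A match is a description of the letters, and Mir223hg and Gm12250, which both held the response element core, moved in opposite directions with EVFx. The window of Gm12250 was matched by symbol. RefSeq types that symbol as protein-coding with the alias Irgb10, an interferon-inducible GTPase that acts on the membranes of intracellular pathogens, whereas the table types the member ENSMUSG00000134402 as lncRNA.

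The question of each comparison with PBS was what a fraction did to these transcripts. A member was called when its adjusted p was under 0.05 and its log2 fold change was beyond 1 in either direction. With RNY1+/+ EVFx, 17 of 172 members were called higher and 12 lower, where 8.24% of all genes tested were called higher and 8.20% lower. With RNY1-/- EVFx, 28 were higher and 11 lower, against 9.01% and 13.5% of all genes. With RNY1+/+ ProteinFx, 24 were higher and 12 lower, against 8.96% and 12.4%, and with RNY1-/- ProteinFx, 17 of 171 were higher and 6 lower, against 6.31% and 7.99%. The members called thus made up 9.88%, 16.3%, 14% and 9.94% of those tested on the higher side and 6.98%, 6.4%, 6.98% and 3.51% on the lower side, in the same order. Groups did not overlap in CPM for 29, 37, 34 and 21 of the called members. Such counts, here and below, were not taken over all genes called, and so show nothing particular to the members. Among the 118 members with at least 15 CPM in all groups, 8, 13, 11 and 8 were higher and 7, 8, 9 and 5 lower. A gene raised by a fraction could enter through that group, so the members' larger shares on the higher side are no test of them. When libraries were scaled by total counts in place of TMM, the median log2 fold change of all genes stood at -0.208, -0.271, -0.197 and -0.0964, beside -0.0316, -0.0321, -0.0282 and -0.0315 with TMM, and the splits became 15 higher and 18 lower, 20 and 16, 20 and 20, and 16 and 8. Over annotated genes the log2 fold change followed transcript GC content with a Spearman rho of -0.09, -0.42, -0.45 and -0.48, in the same order. The part of GC content in the members' counts was not tested. The 4 comparisons share the same PBS libraries.

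**Figure D1:**
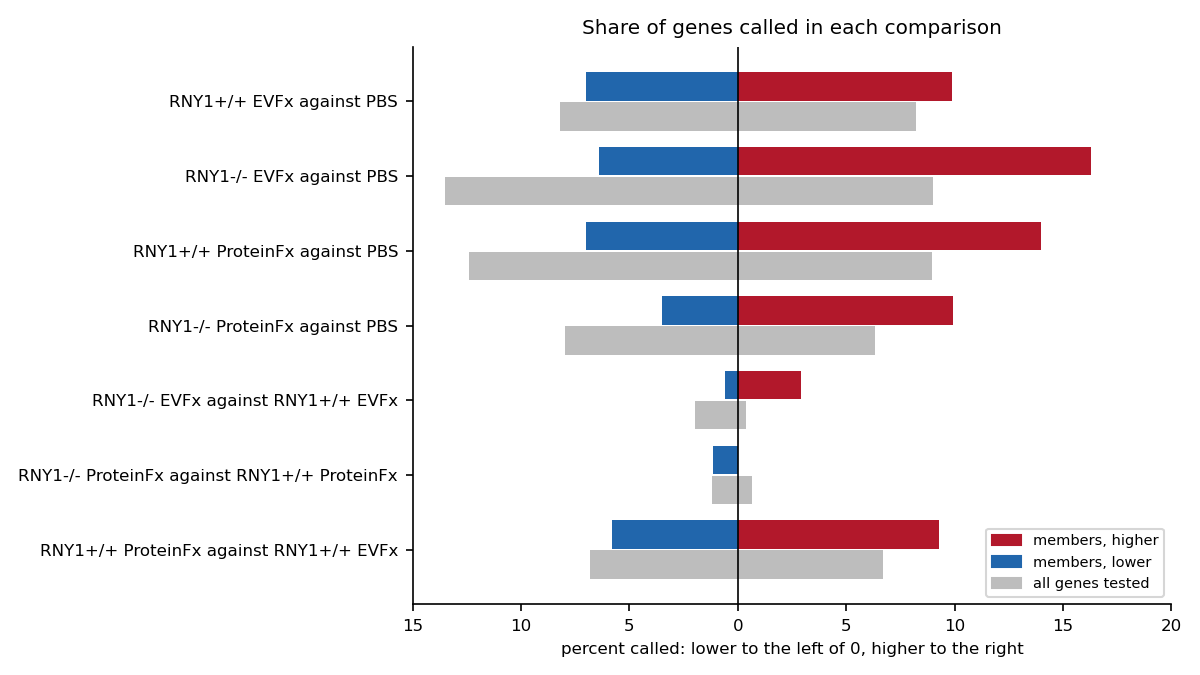
Percent of genes called in each of 7 comparisons, lower to the left of 0 and higher to the right, for the members (red and blue) and for all genes tested (grey). On the higher side the members' bars are longer than the grey bars for all 4 fractions against PBS. The gap is widest with RNY1-/- EVFx (16.3% against 9.01%), and on the lower side the members' bars are shorter. A member could enter through the groups where it was high, so the longer bars are no test of the members. Among the 118 members with at least 15 CPM in all groups, 8, 13, 11 and 8 were called higher with the 4 fractions.

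**Figure D2:**
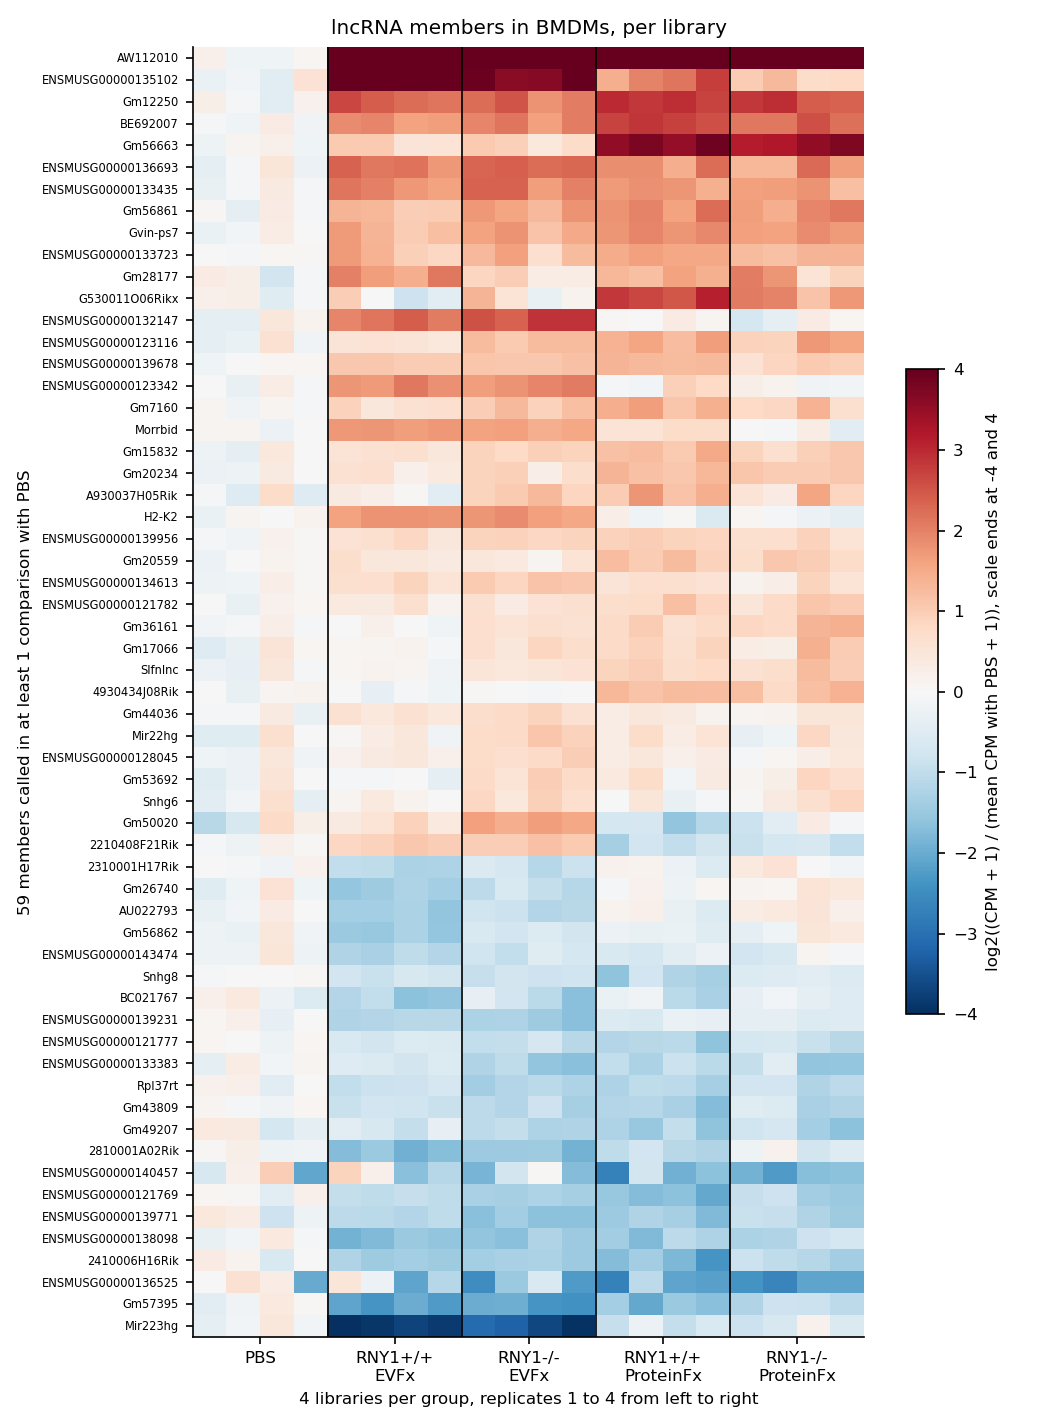
Level of the 59 members called in at least 1 comparison with PBS, in each of 20 libraries (columns, 4 per group), as log2 of (CPM + 1) over (the PBS mean + 1). Red is higher and blue lower than the PBS mean, colours end at -4 and 4, and 22 values lie beyond the scale, up to 6.42 for AW112010 and down to -4.09 for Mir223hg.

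AW112010 (ENSMUSG00000075010), an inflammation-induced transcript known from activated macrophages and T cells, had the widest range of all members, with group means 75.9 times apart. Its PBS libraries held 61.9, 47.9, 47.8 and 56.9 CPM. RNY1+/+ EVFx libraries held 1540, 1660, 1080 and 1150 CPM, RNY1-/- EVFx libraries 2140, 2010, 1130 and 1820, RNY1+/+ ProteinFx libraries 3860, 4630, 3130 and 4670, and RNY1-/- ProteinFx libraries 2650, 2570, 2700 and 2470. The PBS group lay far below all others, and every ProteinFx library lay above every EVFx library. Log2 fold changes against PBS were 4.84 (SE 0.18), 5.29 (0.22), 6.42 (0.19) and 5.67 (0.15), with adjusted p between 6.5e-10 and 2.4e-08. RNY1+/+ ProteinFx exceeded RNY1+/+ EVFx by a log2 fold change of 1.59 (SE 0.16, adjusted p = 7.3e-07).

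The lncRNA entry of Gm12250 held 13.7, 10.9, 8.12 and 13 CPM with PBS. It held 53.9 to 78.5 CPM with RNY1+/+ EVFx, 41.9 to 69.3 with RNY1-/- EVFx, 78.9 to 96.6 with RNY1+/+ ProteinFx and 62.5 to 94.8 with RNY1-/- ProteinFx. No library with a fraction overlapped PBS, and the log2 fold changes were 2.65, 2.49, 3.12 and 2.82 (SE 0.16 to 0.19, adjusted p at most 2.1e-06). A pseudogene entry of the same symbol moved alongside, at 3.75 CPM with PBS and 19.4, 18.3, 25.5 and 21.3 CPM in the same order, and fractional counts in 8 libraries show that some reads were shared with other places.

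Other members were also high with each fraction, and these were singled out after their values were seen. BE692007 rose from 6.33 to 9.38 CPM in the PBS libraries to 24.5 to 31.0, 25.0 to 35.1, 48.5 to 58.4 and 34.4 to 48.8 CPM, with log2 fold changes of 2.11, 2.35, 3.05 and 2.48. ENSMUSG00000136693 rose from a PBS mean of 10.1 ± 3.12 CPM by log2 fold changes of 2.39, 2.66, 2.16 and 1.85. ENSMUSG00000133435 rose from 6.22 ± 1.41 CPM by 2.24, 2.56, 2.01 and 1.82, and its counts were whole in every library. Gvin-ps7, an entry at a pseudogene of the very large interferon-induced GTPases, rose from 57.5 ± 10.1 CPM by 1.54, 1.80, 2.05 and 1.81, and its counts were fractional in all 20 libraries. Adjusted p of these 4 members was at most 0.0007 in each comparison.

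The direct comparison of the fractions, RNY1+/+ ProteinFx against RNY1+/+ EVFx, uses no PBS library. It called 16 of 172 members higher with ProteinFx and 10 lower, against 6.71% and 6.82% of all genes, and 22 of the 26 did not overlap between the groups. Among the 118 members with at least 15 CPM in all groups, 9 were higher and 5 lower. The log2 fold change followed transcript GC content with a Spearman rho of -0.48 across annotated genes, and its part in these counts was not tested.

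Mir223hg, the host transcript of a microRNA of myeloid cells, differed most. PBS libraries held 37.3, 45.0, 67.9 and 45.6 CPM, and RNY1+/+ EVFx libraries 1.94, 2.38, 2.80 and 2.48. RNY1-/- EVFx libraries held 4.86, 4.32, 2.96 and 2.19 CPM, RNY1+/+ ProteinFx libraries 25.3, 41.1, 24.9 and 31.6, and RNY1-/- ProteinFx libraries 26.3, 30.8, 55.0 and 32.2. Both EVFx groups lay below every other library, and the ProteinFx groups overlapped PBS. Log2 fold changes against PBS were -4.19 (SE 0.23, adjusted p = 1.1e-07) and -3.48 (0.25, adjusted p = 8.2e-07) with EVFx, and -0.50 (0.20, adjusted p = 0.056) and -0.39 (0.26, adjusted p = 0.25) with ProteinFx. The difference between RNY1+/+ ProteinFx and RNY1+/+ EVFx was 3.69 (SE 0.20, adjusted p = 1.5e-09). The neutrophil marker sum given above also lay lower with EVFx (142 to 263 CPM) than with PBS (277 to 331 CPM). So did the eosinophil marker sum, at 0.801 to 2.46 CPM with EVFx and 7.17 to 13.5 CPM with PBS. The part of either in the fall of Mir223hg was not tested. In bulk RNA, fewer cells of a type and less RNA per cell cannot be told apart.

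Other members were high with EVFx and near PBS with ProteinFx. ENSMUSG00000132147 held 214, 208, 378 and 301 CPM with PBS and 1070, 1220, 1480 and 1170 with RNY1+/+ EVFx. It held 1430 to 2060 CPM with RNY1-/- EVFx, 270 to 348 with RNY1+/+ ProteinFx and 170 to 344 with RNY1-/- ProteinFx. EVFx libraries of both genotypes thus lay above all others, and the log2 fold changes against PBS were 2.34 (SE 0.20), 2.94 (0.22), 0.29 (0.18) and -0.03 (0.26). RNY1+/+ ProteinFx was lower than RNY1+/+ EVFx by a log2 fold change of -2.05 (SE 0.11, adjusted p = 2.4e-09), although fractional counts in 19 libraries leave its locus uncertain.

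Morrbid, which restrains the pro-apoptotic gene Bcl2l11 and so prolongs the life of short-lived myeloid cells, was also highest with EVFx. Its PBS libraries held 11.8, 11.7, 9.03 and 10.7 CPM and its RNY1+/+ EVFx libraries 38, 39.3, 36.4 and 38.2. RNY1-/- EVFx libraries held 31.2 to 35.4 CPM, RNY1+/+ ProteinFx libraries 16.1 to 18.8 and RNY1-/- ProteinFx libraries 7.78 to 13.5. The RNY1+/+ ProteinFx group lay between PBS and EVFx with no overlap on either side, and RNY1-/- ProteinFx overlapped PBS. Log2 fold changes against PBS were 1.98 (SE 0.12, adjusted p = 2.5e-07), 1.87 (0.13), 0.85 (0.15, adjusted p = 0.00062) and 0.01 (0.19, adjusted p = 0.96), and ProteinFx was lower than EVFx of RNY1+/+ donors by -1.12 (0.10, adjusted p = 2.5e-07).

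2210408F21Rik moved to opposite sides of PBS. Against 18.5 to 25.2 CPM with PBS, it held 39.0 to 46.8 and 44.0 to 49.8 CPM with the EVFx of RNY1+/+ and RNY1-/- donors, and 8.04 to 12.7 and 10.4 to 13.5 CPM with ProteinFx. No group with a fraction overlapped PBS, and the log2 fold changes were 1.16 (SE 0.13), 1.32 (0.12), -0.83 (0.18) and -0.79 (0.16), all with adjusted p at most 0.0041. The direct difference was -1.98 (SE 0.13, adjusted p = 1.6e-08). H2-K2, singled out after its values were seen, is of the major histocompatibility complex class I family, and RefSeq types the symbol as a transcribed pseudogene. H2-K2 held 19.2 to 25.7 CPM with PBS, 69.7 to 88.5 with EVFx of both genotypes and 15.2 to 27.8 with ProteinFx of both, and the direct difference was -1.88 (0.13, adjusted p = 2.7e-08). Its counts were fractional in 15 libraries. ENSMUSG00000135102 was lowest with PBS, at 0.529, 0.708, 0.361 and 1.72 CPM, around the floor of detection. It held 36.0 to 55.2 and 21.3 to 46.5 CPM with EVFx and 3.99 to 11.4 and 2.06 to 3.49 CPM with ProteinFx, so the direct difference was -2.60 (SE 0.22, adjusted p = 1.6e-07), and its comparison of RNY1-/- ProteinFx with PBS did not pass the filter on low counts.

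On the side of ProteinFx, Gm56663 held 45.3, 56.3, 61.0 and 46.5 CPM with PBS and 74.6 to 110 with RNY1+/+ EVFx. It held 70.8 to 108 CPM with RNY1-/- EVFx, 615 to 787 with RNY1+/+ ProteinFx and 473 to 714 with RNY1-/- ProteinFx. ProteinFx libraries lay above all EVFx libraries, and these lay above PBS. The log2 fold changes against PBS were 1.00 (SE 0.16), 1.07 (0.15), 3.89 (0.15) and 3.54 (0.19), and the direct difference was 2.89 (0.14, adjusted p = 4.7e-10). G530011O06Rikx held 3.43 to 6.44 CPM with PBS, 2.54 to 11.5 and 4.11 to 15.1 with EVFx, and 33.7 to 52.7 and 12.7 to 25.2 with ProteinFx. Only its RNY1+/+ ProteinFx libraries stood clear of all other groups, and the direct difference was 2.84 (SE 0.28, adjusted p = 7.7e-07). 4930434J08Rik, with whole counts in all libraries, held 7.76 to 10.9 CPM over PBS and both EVFx groups and 17.3 to 27.8 over both ProteinFx groups. Its direct difference was 1.46 (0.12, adjusted p = 1.5e-07). A930037H05Rik at 1.36 (0.20, adjusted p = 3.2e-05) and Mir99ahg at 1.18 (0.13, adjusted p = 2.9e-06) also differed in this direction.

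**Figure D3:**
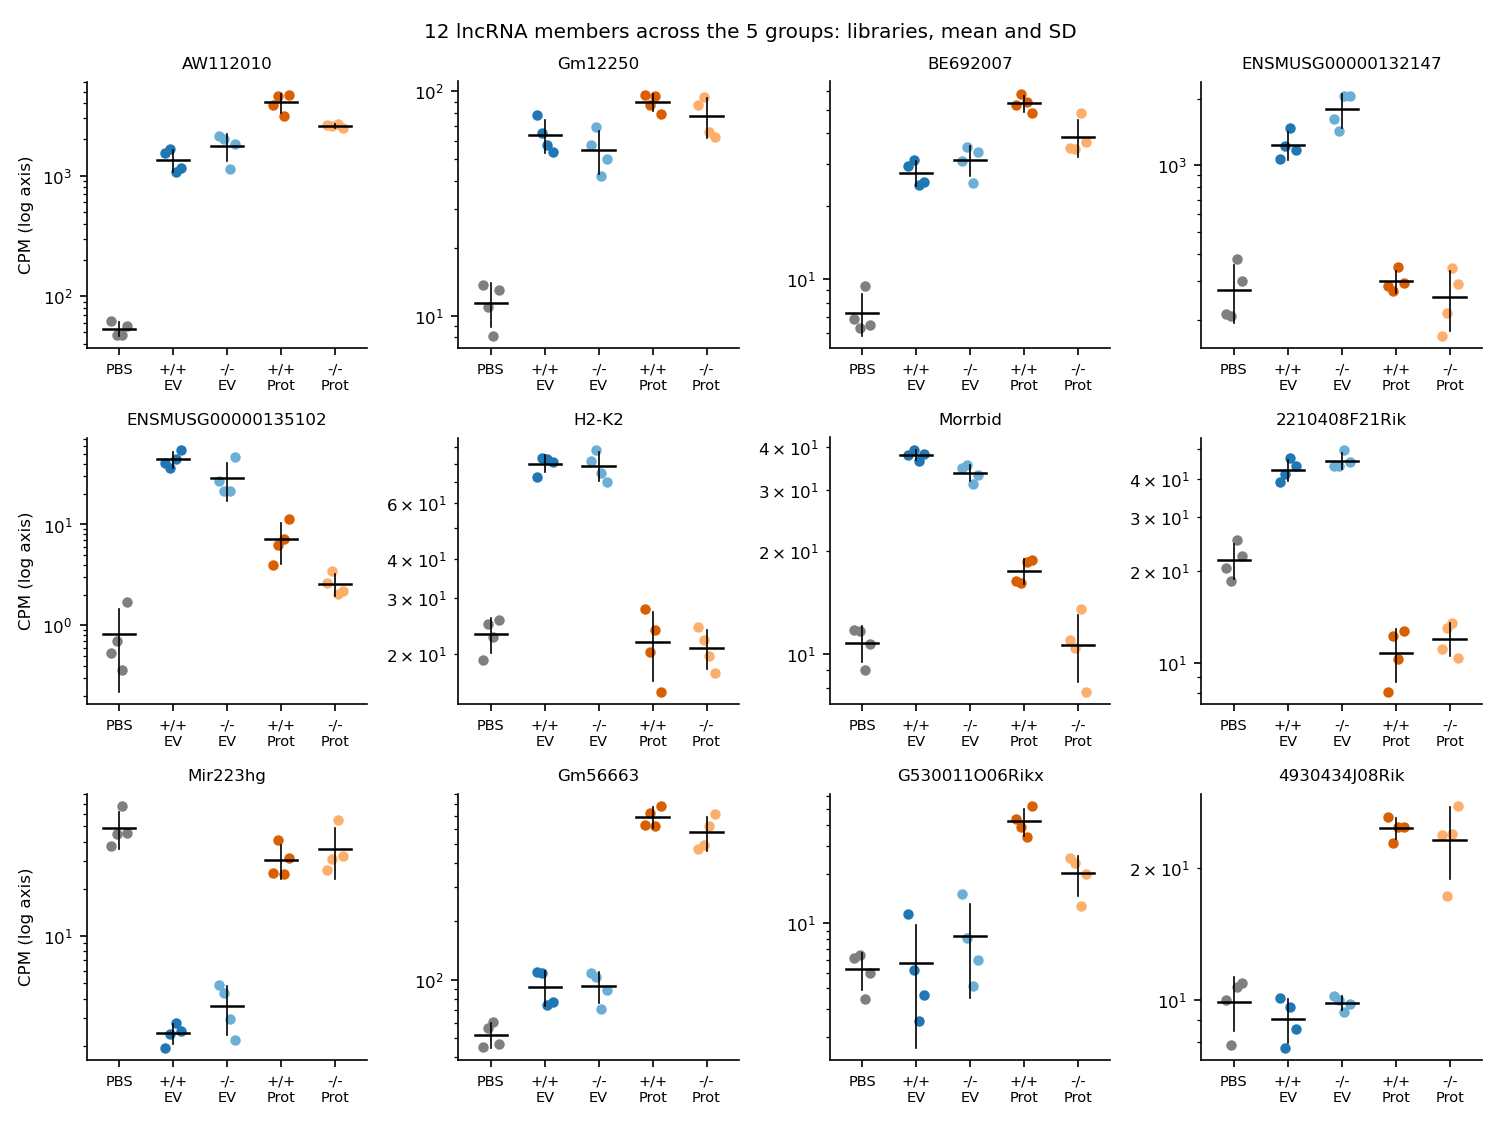
CPM of 12 members in every library (points) with the group mean (horizontal line) and SD (vertical line), on log axes that differ between panels. EVFx and ProteinFx separate for ENSMUSG00000132147, ENSMUSG00000135102, H2-K2, Morrbid and 2210408F21Rik (EVFx higher). They also separate for AW112010, Mir223hg, Gm56663 and 4930434J08Rik (ProteinFx higher). AW112010, Gm12250, BE692007, Gm56663 and ENSMUSG00000135102 lie above PBS in every library with a fraction.

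Members that were lower with the fractions fell by smaller amounts than Mir223hg. 2410006H16Rik held 46.7 to 91.7 CPM with PBS, 26.2 to 30.7 and 25.6 to 29.2 with EVFx, and 13.4 to 27.0 and 26.8 to 39.7 with ProteinFx. PBS did not overlap any group, and the log2 fold changes were -1.21, -1.15, -1.68 and -1.05 (SE 0.18 to 0.23, adjusted p at most 0.0035). The fall with RNY1-/- ProteinFx was near the fold limit, at -0.60 after offsets for GC content and length and between -0.91 and -0.97 without PBS replicate 1 or RNY1-/- ProteinFx replicate 4. Gm57395 fell from 53.0 to 96.5 CPM in the PBS libraries to 12.8 to 18 over both EVFx groups, with log2 fold changes of -2.07 (0.18) and -1.98 (0.19), and to 16.7 to 27.5 CPM with RNY1+/+ ProteinFx (-1.49, 0.20). 2810001A02Rik held 42.3 to 57.8 CPM with PBS and 12.2 to 17.7 over both EVFx groups, with log2 fold changes of -1.59 (0.14) and -1.36 (0.14), and ProteinFx exceeded EVFx of RNY1+/+ donors by 0.71 (0.13, adjusted p = 0.00022).

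ENSMUSG00000121769 fell from 82.0 to 126 CPM with PBS to 25.9 to 37.1 with RNY1+/+ ProteinFx (log2 fold change -1.59, SE 0.16, adjusted p = 9e-06). With RNY1-/- ProteinFx its change of -1.07 (0.18) dropped under the fold limit without PBS replicate 4 (-0.99) or RNY1-/- ProteinFx replicate 4 (-0.98) and with replicates 1 and 2 of that group only (-0.85), and stood at the limit, uncalled, without its replicate 3. ENSMUSG00000139771 held 53.1 to 127 CPM with PBS and 28.8 to 35.5 with RNY1-/- EVFx, a log2 fold change of -1.38 (0.23, adjusted p = 0.00047). ENSMUSG00000136525 varied widely within groups. Its PBS libraries held 271, 423, 336 and 66.8 CPM and its RNY1+/+ EVFx libraries 385, 234, 62.6 and 125, and only RNY1-/- ProteinFx, at 43.3 to 62.5 CPM, was clear of PBS (log2 fold change -2.25, SE 0.44, adjusted p = 0.0037). Counts of these 3 members were fractional in at least 18 libraries.

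The comparison of donor genotypes asked what the loss of RNY1 from the donors changed in the action of a fraction. With EVFx, 5 of 171 members were called higher with RNY1-/- than with RNY1+/+ and 1 lower, against 0.378% and 1.98% of all genes, and 4 of the 6 did not overlap between the groups. Whatever the fold change, adjusted p was under 0.05 for 70 members on the higher and 23 on the lower side, against 25.5% and 26.6% of all genes. The log2 fold change was above 0 for 122 of the 171 and its median was 0.25, beside -0.00119 over all genes, -0.0173 over protein-coding genes and 0.20 over the other lncRNA genes tested. Among the 118 members with at least 15 CPM in all groups, 2 were called, both higher. With total-count scaling the median of all genes stood at -0.0706, and 2 members were called higher and 2 lower. Over the annotated genes of this comparison the log2 fold change followed transcript GC content with a Spearman rho of -0.64 across genes, and only 43.3% of the members tested have a GC content in the annotation at hand, so the part of GC content in the members' shift was not tested.

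Gm53692 had the smallest SE among the genes called, but not the most stable call. It held 22.9, 22.9, 24 and 19 CPM with RNY1+/+ EVFx and 42.3, 35.9, 49.5 and 42.6 with RNY1-/- EVFx, a log2 fold change of 1.01 (SE 0.11, adjusted p = 0.0002) that fell to between 0.91 and 1.00 under 7 alternatives. Gm50020 and A930037H05Rik rose by 1.13 (0.12) and 1.07 (0.18), and remained at 1.05 and 1.08 after offsets for GC content and length. Gm50020 kept its call under all 17 alternatives, and A930037H05Rik was at 0.87 without RNY1+/+ EVFx replicate 4. Gm28177 went the other way. Its RNY1+/+ EVFx libraries held 42.7, 33.4, 28.6 and 45.7 CPM and its RNY1-/- EVFx libraries 18.9, 20.6, 12.4 and 12.5, with no overlap and a log2 fold change of -1.14 (SE 0.18, adjusted p = 0.00037), and -1.24 after the offsets. The other calls, named after their values were seen, had overlapping groups: Gm15564 at 1.09 (SE 0.43, adjusted p = 0.047) and ENSMUSG00000130855 at 1.27 (SE 0.44, adjusted p = 0.027). The count of calls ran from 2 without RNY1+/+ EVFx replicate 4 to 9 without RNY1+/+ EVFx replicate 3.

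With ProteinFx, no member was called higher with RNY1-/- and 2 of 172 were called lower, against 0.659% and 1.17% of all genes, and both had no overlap. Both averaged under 15 CPM in at least 1 group, so neither is among the 118 members at that level in all groups. Whatever the fold change, 3 were higher and 6 lower, against 2.20% and 3.37% of all genes, and the median log2 fold change was 0.00471. ENSMUSG00000135102 held 3.99, 6.19, 7.14 and 11.4 CPM with RNY1+/+ ProteinFx and 2.66, 3.49, 2.06 and 2.18 with RNY1-/- ProteinFx (log2 fold change -1.51, SE 0.33, adjusted p = 0.019). G530011O06Rikx held 43.4, 39.2, 33.7 and 52.7 CPM and 25.2, 23.6, 12.7 and 20.0 CPM (-1.11, 0.19, adjusted p = 0.0043). Without RNY1+/+ ProteinFx replicate 4 neither was called, with ENSMUSG00000135102 at -1.14 (adjusted p = 0.072) and G530011O06Rikx at -0.97. ENSMUSG00000135102 also lost its call without RNY1-/- ProteinFx replicate 1 (-1.48, adjusted p = 0.053), and G530011O06Rikx without RNY1-/- ProteinFx replicate 3 (-0.99) and with replicates 1 and 2 of that group only (-0.95). AW112010 was lower by -0.73 (0.14, adjusted p = 0.0076), Morrbid by -0.83 (0.17, adjusted p = 0.012) and BE692007 by -0.56 (0.14, adjusted p = 0.027), and Snhg8 was higher by 0.66 (0.18, adjusted p = 0.046). Taking RNY1-/- ProteinFx replicates 1 and 2 alone gave 6 members called lower, and replicates 3 and 4 alone gave 1 higher and 2 lower.

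Whether the genotype effect differed between the fractions was tested by an interaction term in a fit of 16 libraries, signed as the effect with ProteinFx minus that with EVFx. Adjusted p was under 0.05 for 60 of 172 members, against 33.0% of all genes, with 17 interactions above 0 and 43 below and a median of -0.22. These were 9.88% and 25% of the members, where 16.8% of all genes passed above 0 and 16.2% below, and 10 and 30 of the 118 members with at least 15 CPM in all groups. Of the members tested in both fractions, 64 were higher with RNY1-/- in EVFx and lower in ProteinFx, and 39 of these were among the 60. With total-count scaling the median of all genes stood at 0.165, beside -6.28e-05 with TMM, and the majority turned to 32 above and 20 below 0. RNY1-/- ProteinFx replicates 1 and 2 alone gave 112 members and replicates 3 and 4 alone gave 6. The number ran from 28 without RNY1-/- ProteinFx replicate 2 and 32 without replicate 1 to 87 without replicate 3, and was 38 and 39 without RNY1+/+ EVFx replicate 4 and RNY1-/- EVFx replicate 4. Transcript GC content followed the interaction with a rho of 0.57 across annotated genes.

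**Figure D4:**
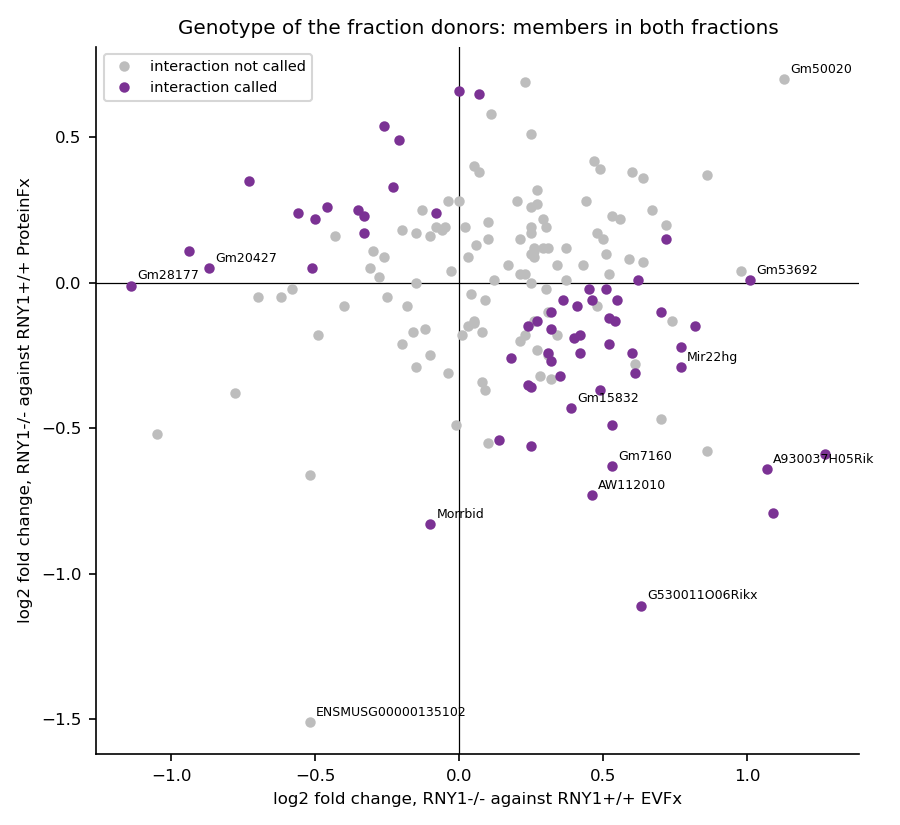
Log2 fold change of RNY1-/- against RNY1+/+ donors with EVFx (horizontal axis) and with ProteinFx (vertical axis) for 171 members, in purple where the interaction passed an adjusted p of 0.05. More points lie to the right of 0 (122 members) than to the left, and 39 of the 60 purple points lie at the lower right.

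AW112010 had an interaction of -1.20 (SE 0.25, adjusted p = 0.0041), with a genotype effect of 0.46 (0.18, adjusted p = 0.047) in EVFx and -0.73 in ProteinFx. The smallest interaction p belonged to Gm20427, at 0.92 (0.18, adjusted p = 0.0034), and it held 20.5 to 27.3 CPM with RNY1+/+ EVFx, 11.6 to 13.1 with RNY1-/- EVFx and 9.73 to 13.3 over both ProteinFx groups. Only the RNY1+/+ EVFx libraries of Gm20427 stood apart among the fraction groups. Its interaction was 0.32 with an adjusted p of 0.18 after offsets for GC content and length. Gm20427 (15.4 CPM) overlaps Slc39a7 (12.6 CPM) and H2-Ke6 (2.93 CPM) on the same strand. The genotype effect in EVFx was -0.87 for Gm20427 and -0.88 for Slc39a7. Their interactions were 0.92 and 0.87, so the reads of this pair may not be separable. Gm7160 followed at -1.17 (0.23, adjusted p = 0.0037), from 11.1 to 15.8 and 15.5 to 20.6 CPM with EVFx and 17.8 to 27.1 and 12.7 to 21.9 CPM with ProteinFx of RNY1+/+ and RNY1-/- donors, and it was -1.06 after the offsets. Gm15832 was at -0.82 (0.17, adjusted p = 0.0038), and -0.36 with an adjusted p of 0.039 after the offsets.

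By role, the list of snoRNA host genes had 21 lncRNA entries and 7 members. Of its 13 or 14 genes tested in each comparison with PBS, none was called with RNY1+/+ EVFx, Snhg6 was higher with RNY1-/- EVFx, with overlapping groups (log2 fold change 1.01, SE 0.23, adjusted p = 0.0032), and Snhg7, no member, and Snhg8 were lower with RNY1+/+ ProteinFx, Snhg7 by -1.76 (SE 0.35, adjusted p = 0.0015). Snhg7 was also called lower with RNY1-/- ProteinFx, at -1.01 (0.21, adjusted p = 0.0046). The list's median log2 fold changes with the 4 fractions were 0.0146, -0.00988, -0.35 and -0.079, beside -0.0282 to -0.0321 over all genes. Snhg8 held 29.7 to 31.2 CPM with PBS, and 9.19, 17.5, 12.6 and 11.6 with RNY1+/+ ProteinFx (log2 fold change -1.10, 0.17, adjusted p = 0.00028). Gas5, a growth arrest-associated host transcript, held 115 to 145 CPM with PBS and 86.2 to 98.5 with RNY1+/+ ProteinFx, a smaller fall of -0.35 (0.11, adjusted p = 0.015). Zfas1 held 41.7 to 71.4 CPM with PBS and 91.6 to 123 with RNY1-/- ProteinFx, and was higher by 0.95 (0.17, adjusted p = 0.0023). Snhg1, Snhg3 and Snhg5 averaged 39.9, 48.8 and 17.1 CPM, and Snhg1 was higher with the EVFx of RNY1-/- than of RNY1+/+ donors (0.62, 0.13, adjusted p = 0.0019).

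The microRNA host list had 10 lncRNA entries, of which 4 were tested in each comparison with PBS and 3 were members. Mir22hg was its only call there. It held 81.4, 82.3, 181 and 116 CPM with PBS and 193, 196, 247 and 220 with RNY1-/- EVFx, with no overlap (log2 fold change 1.14, SE 0.23, adjusted p = 0.0015). The genotype effect of Mir22hg was 0.77 (0.13, adjusted p = 0.00048) in EVFx and -0.29 (0.23, adjusted p = 0.55) in ProteinFx, and the interaction was -1.07 (0.29, adjusted p = 0.013). Mir142hg, which carries a microRNA of blood cells, was lower with RNY1-/- EVFx by -0.44 (0.12, adjusted p = 0.0095). Mir99ahg held 30.5 to 80.1 CPM with PBS, with PBS replicate 3 highest, and 19.1 to 29.4 with RNY1+/+ EVFx (-0.94, 0.26, adjusted p = 0.012). Mir223hg was not on this list.

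The list of nuclear architecture and chromatin RNAs had 18 lncRNA entries and 6 members, and none of these members was called with any fraction, whereas Ftx, no member, was called higher with RNY1-/- ProteinFx (1.19, SE 0.37, adjusted p = 0.029). Norad, a cytoplasmic and nuclear RNA that binds Pumilio proteins, had group means of 74.3 to 104 CPM. Kcnq1ot1 and Airn, antisense RNAs of imprinted loci, had group means of 106 to 166 and 25.4 to 30.3 CPM, and Kcnq1ot1 was higher with the EVFx of RNY1-/- than of RNY1+/+ donors (0.72, 0.11, adjusted p = 0.00035). The list of inflammation-linked lncRNAs had 10 lncRNA entries, of which 3 or 4 were tested per comparison, with AW112010 and Morrbid as members. It had 3 genes called higher and 1 lower with RNY1+/+ EVFx, 2 and 1 with RNY1-/- EVFx, 1 and 0 with RNY1+/+ ProteinFx and 1 and 0 with RNY1-/- ProteinFx, and its genes were chosen with earlier results of these data known. Beside the members, Gm16685 was higher with RNY1+/+ EVFx by 4.02 (SE 0.43, adjusted p = 2.3e-05), and Dnmt3aos was lower with the EVFx of RNY1+/+ donors by -1.60 (0.17, adjusted p = 2.1e-05) and of RNY1-/- donors by -1.53 (0.22, adjusted p = 0.00015). None of the 4 symbols on a list of ribosomal RNA-derived entries was typed as lncRNA.

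By annotation, 12 members share their symbol with a second entry that the table types as a transcribed pseudogene. RefSeq on GRCm38.p6 holds the symbols of 58 members, and types 46 as lncRNA, 5 as protein-coding, 1 as a pseudogene and 6 as transcribed pseudogenes. The protein-coding ones are Gm12250, Gm15501, Ndufb4b, Ppp1ccb and Rpl37rt, named here by this count and not by their values. Rpl37rt averaged 38.2 CPM under its lncRNA entry and 38 under its pseudogene entry, Ubb-ps 241 and 182, and Gvin-ps7 155 and 120, so that for these loci the lncRNA label covers part of the reads of the symbol. H2-K2 averaged 44.9 CPM under the lncRNA entry and 0.263 under the other. Counts were fractional in more than 10 libraries for 113 of the 172 members, among them 60 of the 67 without a gene name, and whole in every library for 15.

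By position, 75 members have an identifier in the GENCODE M21 annotation of GRCm38, and 47 of these lay on or next to a protein-coding gene. In 29 cases such a gene overlapped on the other strand, in 13 on the same strand, in 16 it started within 2 kb on the other strand, and in 4 it ended within 5 kb upstream on the same strand. Counting used strand, so a gene and its antisense partner were counted apart, whereas same-strand overlaps can share reads. How many reads were counted on the wrong strand was not tested, so antisense pairs may not be fully separable either. BE692007 overlaps Ms4a6c, a membrane protein gene of myeloid cells, on the other strand. Against PBS, BE692007 changed by 2.11, 2.35, 3.05 and 2.48 and Ms4a6c by 2.18, 2.23, 2.88 and 2.45 on the log2 scale, at 31.6 and 1340 CPM. Gm7160 and Zcchc2 start within 2 kb of each other on opposite strands and changed by 0.94, 1.46, 1.71 and 1.08 and by 0.97, 1.40, 1.84 and 1.39. Gm15832 overlaps Rnf149, a ubiquitin ligase gene, on the same strand at a like level (656 and 695 CPM), and the pair changed by 0.75, 1.13, 1.43 and 0.98 and by 0.70, 0.99, 1.28 and 0.84, so their reads may not be separable.

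In other pairs the changes differed in size or direction. A930037H05Rik lies opposite Rnf213, an interferon-inducible ubiquitin ligase gene, which rose by 2.16, 2.21, 2.63 and 2.24, while A930037H05Rik was at 0.31, 1.38, 1.67 and 1.04. In EVFx the genotype effect was 1.07 for A930037H05Rik and 0.06 (adjusted p = 0.67) for Rnf213. Airn overlaps Igf2r, which it silences on the paternal allele in many tissues, on the other strand. Igf2r fell by 0.65, 0.64, 0.43 and 0.48 on the log2 scale (adjusted p at most 0.0093), and Airn was at 0.13, 0.36, 0.34 and -0.02, none past the test. Zfas1 was at 0.34, 0.58, 0.71 and 0.95 and Znfx1, which overlaps it on the other strand and starts within 2 kb, at 1.60, 1.30, 1.67 and 1.45.

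The span between groups varied among the members. Group means differed by less than 1.5 times for 33 of the 172, by at least 2 times for 72, by at least 4 times for 14 and by at least 10 times for 4, which were AW112010, ENSMUSG00000135102, Mir223hg and Gm56663, and the median ratio of the highest to the lowest group mean was 1.89. Gm56582 is an example near the limit of selection, with group means from 12 ± 0.323 to 17.7 ± 1.91 CPM and no call. ENSMUSG00000128633 held 20.4 to 22.4 CPM with PBS and 9.17 to 18.3 over the other groups, and its largest change was -0.74 (SE 0.14, adjusted p = 0.0011) with RNY1+/+ ProteinFx.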

How the data were processed

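Polyadenylated RNA of 20 libraries was sequenced from the 3′ end with molecular identifiers. The authors used fastp 0.24.0, STAR 2.7.11 and, on exons and 3′ UTRs with strand, featureCounts of Subread 2.1.1, on GRCm39, and shared out reads that map to several places. The authors deposited these estimated counts without normalization, and CPM over each library's total. Since fractions are shared out, a member can hold reads of another copy.

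Counts were rounded and tested with edgeR 4.0.16 (glmQLFit, glmQLFTest, TMM) on the 8 libraries of 2 groups, or 16 for the interaction, after filterByExpr, with a minimum mean of 3 CPM. P-values were Benjamini-Hochberg adjusted over all genes tested, with limits of 0.05 and a log2 fold change of 1. The SE of a log2 fold change was derived from it and the F statistic. Members, lists and the rule for naming genes were chosen with earlier results of these data known. Named were the 10 members of highest mean, members on role lists, the 3 largest called rises and falls per comparison whose groups do not overlap, the 3 smallest interaction p and the 3 genes on either side of 15 CPM. A neighbouring gene was named by position only, and other genes are marked as chosen after their values were seen. Total counts were 2510005 to 8277366, and every pair of replicates differed by more than counting error. Replicate numbers were checked for pairing by the correlation of same-numbered deviations: for RNY1-/- EVFx against PBS all 4 were above 0.1 (0.136, 0.371, 0.241 and 0.139). The tests were tried on simulated counts. Other software was python 3.11.15 with numpy 2.4.6 and pandas 2.3.3, R 4.3.3 and DESeq2 1.42.0. Alternatives were DESeq2, total-count scaling, other filters and fold limits, a fit of all 20 libraries, thinned counts, a replicate block and leaving out each library, and, chosen after seeing the data, subsets of RNY1-/- ProteinFx, counts rounded down and GC offsets for named annotated genes. A result on 1 further gene is not reported here.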

Additional observations from a re-analysis of the deposited data

Results flagged for a closer look

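In a group of 4 libraries, a value was set apart when its gap to the nearest other took more of the range than Dixon's 95% critical value allows. Of 225 groups over the 45 named members, 5 passed, or 2.22%, where chance alone gives about 1 in 20. Snhg5 stood at 18.8 CPM in PBS replicate 3 (others 11.1 to 11.4) and at 21.9 CPM in RNY1-/- ProteinFx replicate 3 (others 14.8 to 15.9). Gm56862 stood at 841 CPM in PBS replicate 3 (others 511 to 554). 2810001A02Rik stood at 12.5 CPM in RNY1-/- EVFx replicate 4 (others 17.4 to 17.7), and ENSMUSG00000139771 at 35.5 CPM in RNY1-/- EVFx replicate 2 (others 28.8 to 29.9).

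The effect of donor genotype differed between the fractions, by the test of the interaction itself, for 60 of 172 members. This share is near that of all genes, of which 33.0% passed. Among the named members were G530011O06Rikx at -1.75 on the log2 scale (adjusted p = 0.013), A930037H05Rik at -1.73 (adjusted p = 0.0038), Gm7160 at -1.17 (adjusted p = 0.0037), Gm28177 at 1.14 (adjusted p = 0.016), Gm53692 at -1.01 (adjusted p = 0.0086), Gm20427 at 0.92 (adjusted p = 0.0034) and Gm15832 at -0.82 (adjusted p = 0.0038), all by edgeR with p adjusted over all genes (Benjamini-Hochberg). In the same test after offsets for GC content and length, Gm20427 was at 0.32 (adjusted p = 0.18) and Gm15832 at -0.36 (adjusted p = 0.039). Gm7160 was at -1.06 (adjusted p = 0.0044). With RNY1-/- ProteinFx replicates 3 and 4 only, 6 members passed. With total-count scaling 32 interactions were above 0 and 20 below, beside 17 and 43 as reported.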

How the results depend on the processing

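Single values were followed only for members named for the largest called changes of a comparison or the smallest interaction p. None of these values changed sign under any alternative run, and other called values of named members were not followed. The majority of interactions turned from below to above 0 with total-count scaling, as given above. Of 688 alternative results for the values followed, 663 kept their side of the limits and 25 became weaker, and of 150 counts of members 129 stayed within 1.5 times. With the adjusted p alone, the counts were 89, 106, 97 and 70 for RNY1+/+ EVFx, RNY1-/- EVFx, RNY1+/+ ProteinFx and RNY1-/- ProteinFx against PBS, 128 for RNY1+/+ ProteinFx against RNY1+/+ EVFx, and 93 and 9 for the genotypes in EVFx and ProteinFx. The genotype count in ProteinFx was 6 with replicates 1 and 2 of RNY1-/- ProteinFx only and 1 with thinned counts, and the interaction count was 112 with replicates 1 and 2, 6 with replicates 3 and 4, 12 with a log2 interaction beyond 1, 38 with all 20 libraries in the fit and 37 with thinned counts. Leaving out each library gave 28 to 31, 35 to 50, 31 to 41 and 19 to 32 members against PBS (the 50 and 32 without PBS replicate 3), 22 to 28 between the fractions, 2 to 9 and 0 to 2 for the genotypes in EVFx and ProteinFx, and 28 to 87 for the interaction. The 0 was without RNY1+/+ ProteinFx replicate 4, and 1 member was left without RNY1-/- ProteinFx replicate 1. DESeq2 gave 29, 37, 35 and 24 against PBS, 24 between the fractions, 5 and 2 for the genotypes and 56 for the interaction. A limit of 10 CPM gave 230 members, 30 CPM gave 89, and 15 CPM in every group gave 118. With the replicate block the counts were 27, 38, 35 and 24 against PBS, 26 between the fractions, 4 and 2 for the genotypes and 59 for the interaction; Gm53692, at 1.00, lost its call by the fold limit. Outside RNY1-/- EVFx against PBS, not every pair's correlation of deviations was over 0.1. Such a cut-off cannot show that libraries are unpaired, and the sources do not say whether same-numbered libraries share more than a number. For RNY1-/- ProteinFx against PBS the correlations were 0.512, 0.619, 0.642 and 0.025, and with the block and the adjusted p alone 67 members were higher and 49 lower, where 37 and 33 were without it. Offsets for GC content and length were not run for the counts, since 43.6% of the members have a GC content. At the smallest total, 3 counts are 1.2 CPM, which limits members near 0 in a group.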

Other observations

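The libraries of a group did not share the members' highest values evenly. Among the 172 members, PBS replicate 3 was the highest PBS library for 107, where the other PBS libraries were highest for 21 to 23. RNY1-/- ProteinFx replicate 3 was highest of its group for 76 and RNY1+/+ ProteinFx replicate 2 for 80. Replicate 3 was highest for 72 with RNY1+/+ EVFx and for 67 with RNY1-/- EVFx. Kcnq1ot1, for example, held 218 CPM in PBS replicate 3 and 90.1 to 137 CPM in the other PBS libraries, and 201 CPM in RNY1-/- ProteinFx replicate 3 beside 109 to 155 CPM. In each group the library most often highest had the smallest total counts. These totals were 4372150 with PBS, 4994483 and 4059987 with RNY1+/+ and RNY1-/- EVFx, and 3945372 and 2510005 with RNY1+/+ and RNY1-/- ProteinFx. The part of depth in the members' levels was not tested.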
